A study of Populus ussuriensis with 12 samples.

Results

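The comparison set roots of Populus ussuriensis plants overexpressing PuHox52 (PuHox52-OE) against wild-type (WT) roots, both grown on low-N medium. Plants were propagated clonally in vitro on woody plant medium, and internodes that had developed evenly were moved to normal-N or low-N medium, on which they stayed for 3 weeks before whole roots were taken for RNA-seq. Each genotype at low N had 3 libraries, which made 6 of the 12 libraries of the series. The other 6 were the same genotypes at normal N and serve here only as a reference. The labels do not give the promoter of the transgene, the number of transgenic lines or the N content of the media. All 23842 of 34699 gene IDs with at least 1 FPKM, a level normalized for gene length and library size, in at least 3 of the 6 low-N libraries were compared.

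PuHox52 is a poplar transcription factor of the homeodomain-leucine zipper family, a plant family whose members bind DNA as dimers and include regulators of root and vascular development and of responses to water and nutrient supply. Roots take up nitrogen mainly as nitrate and ammonium, and a low supply alters uptake, assimilation and root growth in many plants. The comparison asks how the root transcriptome of a plant with more of this factor differs when N is scarce. The table gives IDs without names or descriptions, so neither gene functions nor the tissue label could be checked against known root genes. The table also does not say which ID is PuHox52.

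Of the 10857 IDs left out, 4000 were listed at 0 in all 6 libraries. Counting by the third highest of the 6 values, 289 IDs lay from 1 to under 1.1 FPKM, just inside the limit, and 267 lay from 0.9 to under 1, just outside. The nearest values on either side were 1.0001 and 0.9987 FPKM. At least 1 FPKM in all 6 libraries was reached by 21781 IDs.

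The 6 libraries had similar depth, at 0.952 to 1.07 relative to WT replicate 1, as inferred from the steps in which low FPKM values move. On the same scale the 6 normal-N libraries were deeper, at 2.13 to 2.59, so depth and N supply cannot be told apart where N supplies are compared. Genotype separated them on the first principal component (75.1% of the variance), with WT at -48.7 to -45.4 and PuHox52-OE at 45.7 to 48.0. The second component held 10.4% and spread the PuHox52-OE libraries, from 29.3 for replicate 1 to -27.5 for replicate 3. PuHox52-OE replicates 1 and 3 differed by at least 1 on the log2(FPKM + 1) scale at 590 IDs, against 155 to 235 between any pair of WT libraries. WT replicate 2 stood apart in a run of IDs that begins with Potri.013G000100. Among genes that averaged at least 5 FPKM in each of the 4 groups, the median of 121 genes of that run was set against 13705 others. It lay at -0.62 on the log2 scale in WT replicate 2, at -0.01 and 0.07 in WT replicates 1 and 3, and at 0.16 to 0.20 in the PuHox52-OE libraries. Shares of calls among Potri.013G IDs and in stretches of consecutive IDs are given with and without WT replicate 2. Calls over all genes are given as a range over leaving out each low-N library. The labels name 2 sequencing companies but not which library went to which, so company and genotype cannot be told apart.

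Potri.016G057600 showed the largest rise. Its level was 29.4, 81.0 and 30.2 FPKM in WT replicates 1 to 3 and 1987, 2820 and 3539 FPKM in PuHox52-OE replicates 1 to 3. The groups were far apart, and WT replicate 2 was the high library of its group. Leaving WT replicate 2 out gave a log2 fold change of 6.46, against 5.99 with it. The mean was 59.4-fold higher in PuHox52-OE roots, and the log2 fold change on the log2(FPKM + 1) scale was 5.99 ± 0.42 (SE; limma, Benjamini-Hochberg adjusted p = 0.000126). At normal N the ID held 3.40 to 3.48 FPKM in WT and 5.79 to 6.95 FPKM in PuHox52-OE libraries. These groups did not overlap either, but the log2 fold change of 0.77 was not called in the fit of all 12 libraries (limma adjusted p = 0.144). That fit shares its spread with the low-N libraries, which varied more, so a normal-N difference stays undecided. The interaction, its genotype effect at low N less that at normal N, was 5.22 ± 0.49 (SE; limma adjusted p = 2.73e-05).

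Potri.014G103000 was the second ID by size of rise. WT replicates 1 to 3 held 55.4, 51.0 and 28.2 FPKM, and PuHox52-OE replicates 1 to 3 held 1557, 2310 and 1091 FPKM. No library of one group came near the other, but the PuHox52-OE values themselves spanned a range in which replicate 3 was lowest. The log2 fold change was 5.16 ± 0.34 (SE; limma adjusted p = 0.000104). This ID was also far higher in PuHox52-OE roots at normal N, where WT held 6.71 to 8.14 FPKM and PuHox52-OE held 2251 to 2392 FPKM. Its effect was smaller at low N, with an interaction of -2.94 ± 0.40 (SE; limma adjusted p = 0.000247).

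Among the IDs that fell, Potri.001G305400 had the largest change. It held 24.5, 18.5 and 21.4 FPKM in WT replicates 1 to 3 and 0.39, 0.059 and 0.061 FPKM in PuHox52-OE replicates 1 to 3. Every PuHox52-OE library was below 1 FPKM and far below every WT library. The mean was 126-fold lower in PuHox52-OE roots. The log2 fold change was -4.27 ± 0.16 (SE; limma adjusted p = 6.02e-06), a size that depends on the pseudocount and was -6.52 with 0.1. At normal N it was lower in PuHox52-OE roots too, at 0.43 to 0.66 against 1.71 to 1.89 FPKM, with an interaction of -3.38 ± 0.19 (SE; limma adjusted p = 4.72e-08).

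Potri.014G022900, a more abundant ID, held 473.3, 476.5 and 413.8 FPKM in WT replicates 1 to 3 and 25.0, 15.9 and 52.6 FPKM in PuHox52-OE replicates 1 to 3. The groups did not overlap. At normal N the ID held 18.3 to 23.9 FPKM in WT and 13.2 to 14.6 FPKM in PuHox52-OE libraries. These normal-N groups did not overlap either, but the log2 fold change of -0.55 was not called in the fit of all 12 libraries. As that fit shares its spread with the more variable low-N libraries, a normal-N difference stays undecided. Low-N PuHox52-OE replicates 1 and 2 lay near these normal-N levels, and replicate 3 lay above them. The log2 fold change at low N was -3.99 ± 0.39 (SE; limma adjusted p = 0.000471), and the interaction was -3.44 ± 0.46 (SE; limma adjusted p = 0.000272). In bulk roots, fewer cells of a type and less RNA per cell cannot be told apart for any of these IDs.

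**Figure D1:**
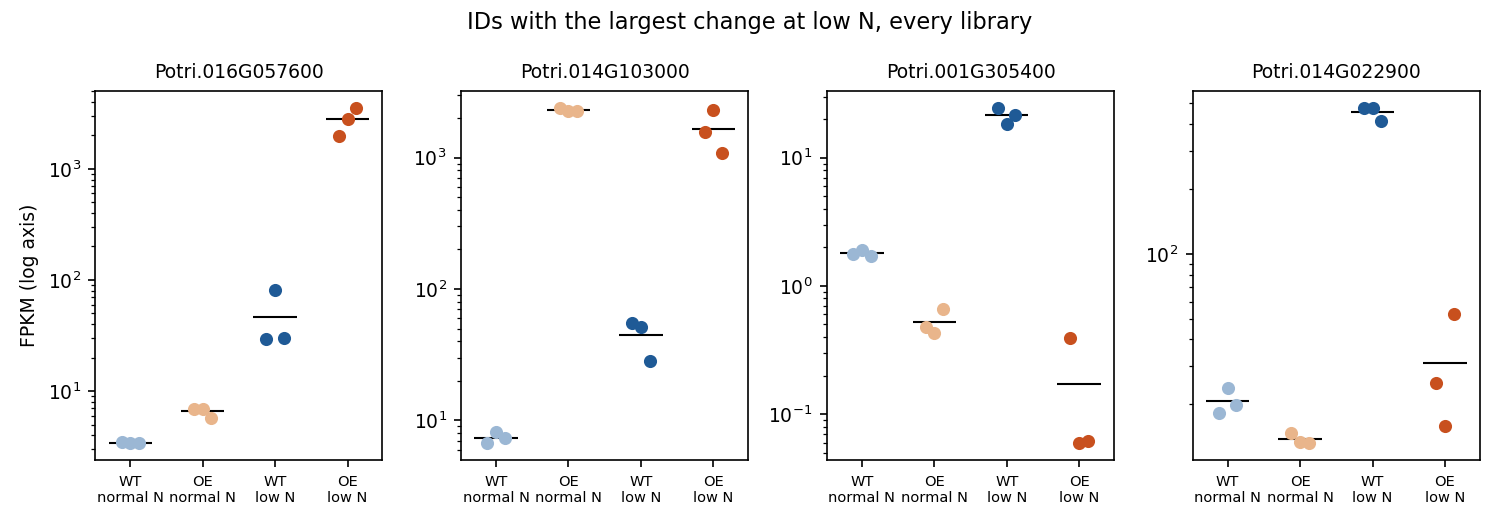
FPKM (log axis) of the 4 IDs with the largest rise or fall at low N, with 1 point per library and a line at the group mean; groups are WT and PuHox52-OE (OE) at normal and low N, 3 libraries each. The low-N groups do not overlap for any of the 4 IDs, and Potri.014G103000 is also raised in PuHox52-OE roots at normal N.

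Across all genes, 9534 of 23842 (40.0%) differed between the genotypes at low N (limma, Benjamini-Hochberg adjusted p under 0.05). Of these, 3560 (14.9%) were higher and 5974 (25.1%) lower in PuHox52-OE roots. Rises made up 37.3% of these calls. Their share depended on how libraries were scaled and was 53.1% with median-of-ratios factors and 45.0% when quantiles were normalized. The median of all tested genes was -0.10 with the deposited values and 0.00 after median-of-ratios scaling. Groups that did not overlap were found for 12769 genes (53.6%), with PuHox52-OE above WT for 4591 (19.3%) and below it for 8178 (34.3%).

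Most called differences were small. Which direction held more of the large ones depended on the pseudocount. The median log2 fold change was 0.63 among the genes called higher and -0.51 among those called lower. On the log2 scale, 1 or more was reached by 1008 higher (4.23%) and 881 lower (3.70%) genes, and with a pseudocount of 0.1 by 1250 higher and 1271 lower genes. At least 2 was reached by 221 higher and 119 lower genes, at least 3 by 66 and 12, and at least 4 by 14 and 1. The 1 gene that fell by at least 4 was Potri.001G305400. Rises from a low WT level and falls to a low PuHox52-OE level are both understated on this scale.

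Few genes went from silence to expression. 3 IDs were listed at 0 in all WT libraries and had at least 1 FPKM in all PuHox52-OE libraries, at 1.16 to 6.37 FPKM, and 0 IDs did the opposite. With wider limits, 6 IDs had under 0.5 FPKM in every WT library and at least 5 FPKM in every PuHox52-OE library, reaching 32.9 FPKM at most. The reverse held for 3 IDs, Potri.001G305400 among them. All 9 of these IDs passed the limma test, against 40.0% of all tested genes, which limits set on the same libraries favour.

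**Figure D2:**
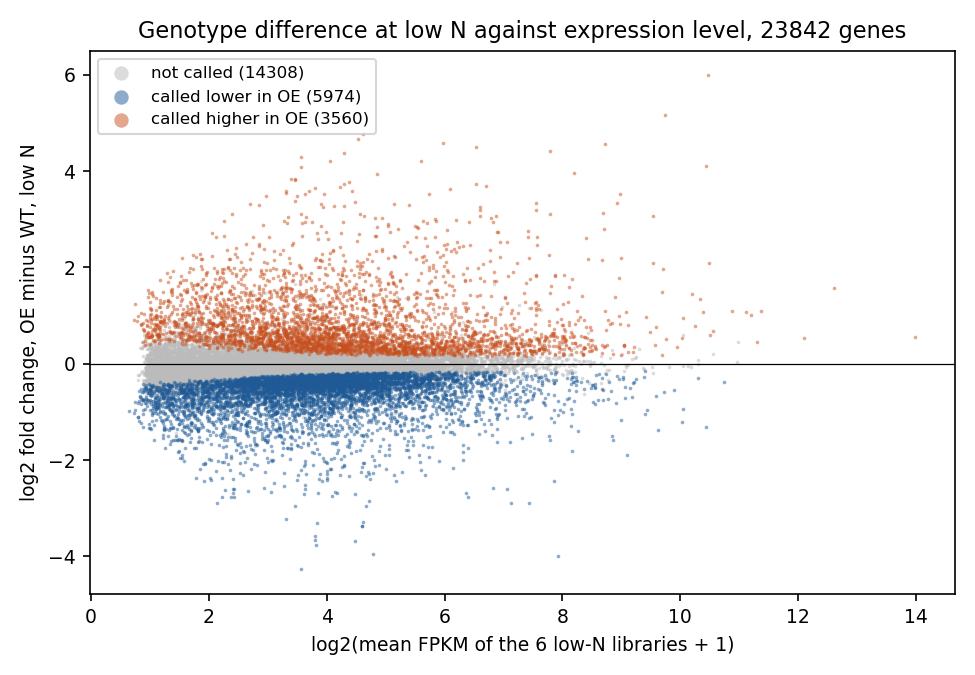
Log2 fold change at low N (PuHox52-OE minus WT, on the log2(FPKM + 1) scale) against the log2 of the mean FPKM of the 6 low-N libraries plus 1, with 1 point per gene. Orange marks the 3560 genes called higher, blue the 5974 called lower and grey the rest; the farthest point lies at 5.99.

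Rises outnumbered falls among the most abundant genes in the deposited values and with median-of-ratios factors, but not after quantile normalization. Among 1060 genes that averaged 100 FPKM or more at low N, 424 (40.0%) were called higher and 255 (24.1%) lower, whereas 673 (10.1%) and 1195 (17.9%) of the 6686 genes under 5 FPKM were called higher and lower. The excess of rises among abundant genes was larger after median-of-ratios scaling, at 518 against 186, and turned over after quantile normalization, at 301 against 364. Quantile normalization gives all libraries the same distribution of values. The 10 most abundant IDs of each library, which may differ between libraries, held 5.08 to 5.38% of the summed FPKM in WT and 7.69 to 8.35% in PuHox52-OE libraries. The summed FPKM itself was 628254 to 633875 in WT and 667558 to 686005 in PuHox52-OE libraries. The ID with the highest mean level held 12293, 13552 and 13567 FPKM in WT replicates 1 to 3 and 20533, 20931 and 16611 FPKM in PuHox52-OE replicates 1 to 3. These values do not overlap, and the log2 fold change was 0.55 ± 0.10 (SE; limma adjusted p = 0.00384).

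**Figure D3:**
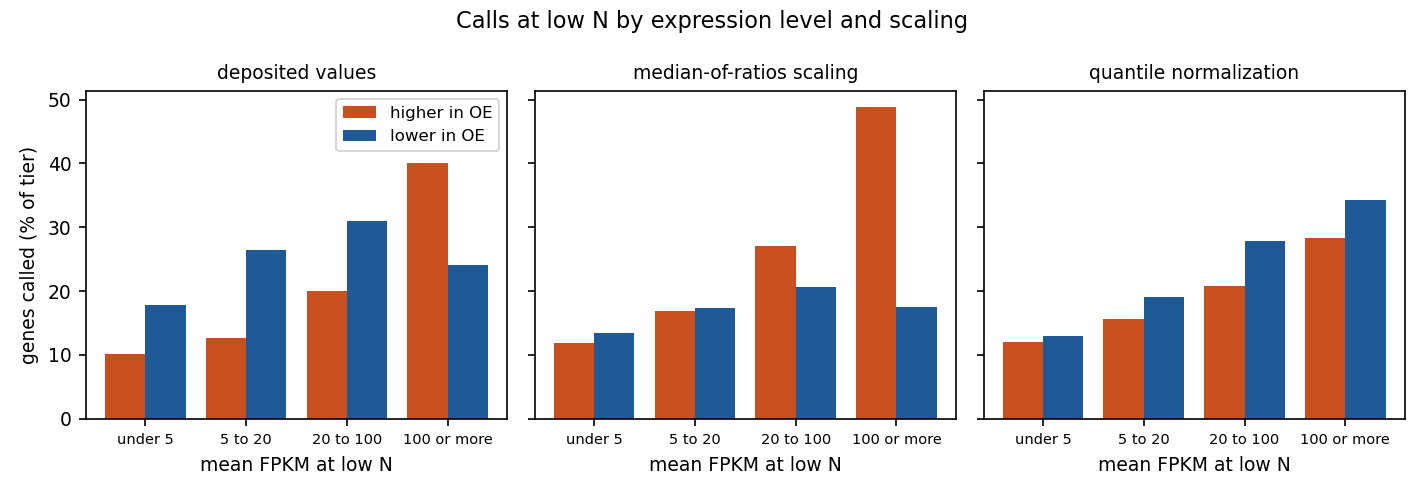
Share of genes called higher (orange) or lower (blue) in PuHox52-OE roots at low N, in percent of the genes of each level of mean low-N FPKM, for the deposited values and for 2 other scalings. With the deposited values the genes of 100 FPKM or more are the only level with more rises, at 40.0% against 24.1%, and after quantile normalization they show 28.4% against 34.3%.

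The genes that changed by at least 1 were also set against the whole of each library. The 1008 risen genes held 4.29, 4.43 and 4.56% of the summed FPKM in WT replicates 1 to 3 and 13.9, 14.5 and 13.8% in PuHox52-OE replicates 1 to 3. In the normal-N libraries, which had no part in choosing these genes, they held 11.5 to 11.9% in WT and 13.8 to 13.9% in PuHox52-OE. The low-N WT libraries were thus the low ones of the 4 groups, and the low-N PuHox52-OE libraries lay near the normal-N PuHox52-OE level. The 881 fallen genes held 5.80 to 6.01% in WT and 1.94 to 2.01% in PuHox52-OE at low N, and 3.36 to 3.46% in the 6 normal-N libraries. In these sums the normal-N libraries lay between the low-N groups. The genes were chosen on the low-N values, so the contrast between the low-N groups is a description. That choice also favours sums in which the low-N groups lie at the extremes of the 4 groups.

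Gene by gene, the median levels of the 1008 risen genes were 5.24 FPKM in WT and 19.2 FPKM in PuHox52-OE at low N, and 13.1 and 13.5 FPKM at normal N. Both normal-N means lay above the low-N WT mean for 774 of them, and both lay below the low-N PuHox52-OE mean for 674. For the 881 fallen genes the medians were 14.3 and 4.43 FPKM at low N and 6.00 and 5.26 FPKM at normal N, with both normal-N means below the low-N WT mean for 720. Both normal-N means lay above the low-N PuHox52-OE mean for 464 of the fallen genes and below it for 289. Choosing genes that are low or high in the low-N WT libraries favours such counts.

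**Figure D4:**
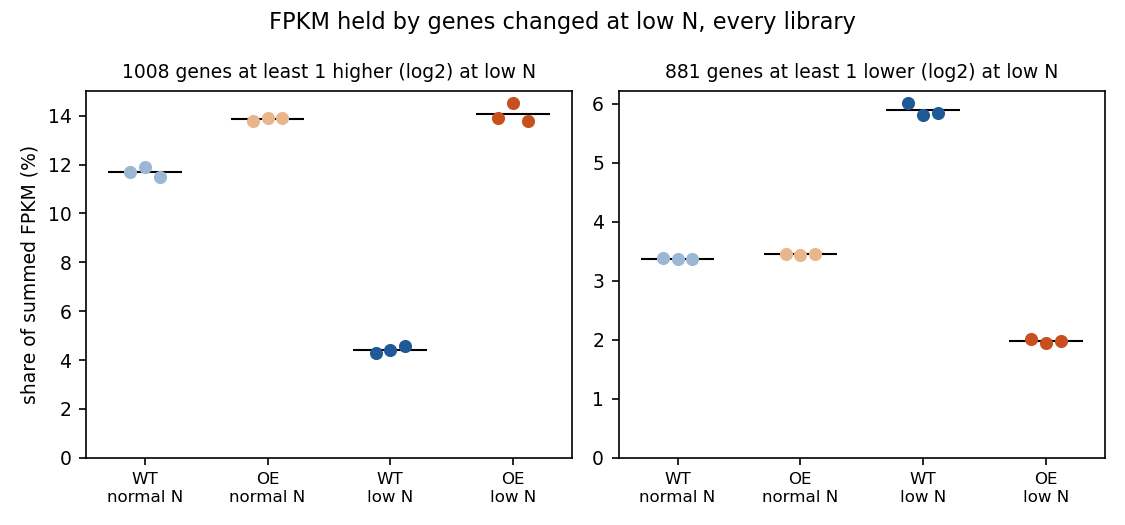
Share of the summed FPKM, in percent, held by the 1008 genes at least 1 higher and the 881 genes at least 1 lower (log2) in PuHox52-OE roots at low N, with 1 point per library and a line at the group mean. The risen genes hold 4.29 to 4.56% in WT at low N and at least 11.5% in every other library; the fallen genes hold most in WT at low N and least in PuHox52-OE at low N.

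The same genes were then read in the genotype comparison at normal N, which shares no library with that at low N and was fitted on its own 6 libraries. Of the 1008 genes risen at low N, 356 (35.3%) were also called higher at normal N, against 10.1% of all tested genes, and 219 (21.7%) were called lower, against 24.1%. The 356 genes are 14.7% of the 2415 called higher at normal N. Of the 881 genes fallen at low N, 268 (30.4%) were also lower at normal N, against 24.1%, but 189 (21.5%) were higher, against 10.1%. The 268 genes are 4.67% of the 5735 called lower at normal N. The median log2 fold change at normal N was 0.11 for the risen and -0.07 for the fallen genes, beside -0.08 for all tested genes. Fitted with all 12 libraries, the counts in the same direction were 242 of the risen genes, where 6.51% of all tested genes were called higher, and 165 of the fallen genes, where 16.8% were called lower. The interaction was called for 8589 genes (36.0%) in all. It was called in the direction of the low-N change for 970 of the risen and 804 of the fallen genes, a count that choosing large low-N changes favours.

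Some calls lay side by side. By the naming convention of the poplar reference annotation, the digits before the G in a Potri ID are the chromosome and those after it follow the order along it. Among genes called and at least 1 lower, the next tested ID was also called and at least 1 lower for 105 of 876, while 3.69% of all placed genes were. For genes at least 1 higher this held for 81 of 1003 (8.08%), while 4.23% of all placed genes were. Over all calls of any size, the next tested ID was called in the same direction for 30.6% of the lower genes, while 25.1% of all placed genes were lower, and for 19.6% of the higher genes, while 14.9% were higher. Neighbouring IDs can be near-identical copies that share reads, which the FPKM values do not resolve.

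The longest stretch of consecutive tested IDs called in 1 direction ran from Potri.013G137900 to Potri.013G142401 and held 21 IDs, all higher in PuHox52-OE roots. Their summed level was 163, 130 and 170 FPKM in WT replicates 1 to 3 and 416, 401 and 358 FPKM in PuHox52-OE replicates 1 to 3, at low N. At normal N the sum was 30.7 to 42.8 FPKM in WT and 38.4 to 54.0 FPKM in PuHox52-OE. The stretch was thus weakly expressed at normal N, where the groups overlapped in sum, and highest in PuHox52-OE at low N. The log2 fold changes at low N ran from 0.59 to 1.85, with a median of 1.02. At normal N 1 of the 21 IDs was called higher and 0 lower, against 10.1% and 24.1% of all tested genes. Their median level there was 0.67 to 1.20 FPKM per library, where precision is limited. All 21 passed after either other scaling. Without WT replicate 2, 17 of the 21 passed, where 77.9% of all low-N calls were kept. The interaction was called for 15 of the 21, against 36.0% of all tested genes, a count that choosing IDs called at low N favours. In 14 of them the ID does not end in 00, which holds for 7.39% of all tested IDs.

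The longest stretch of falls ran from Potri.001G459500 to Potri.001G461400 and held 12 IDs. Its summed level was 410, 420 and 420 FPKM in WT replicates 1 to 3 and 171, 185 and 158 FPKM in PuHox52-OE replicates 1 to 3, at low N. At normal N, in libraries that had no part in finding the stretch, the sum was 413 to 442 FPKM in WT and 235 to 244 FPKM in PuHox52-OE. All 12 IDs were called lower at normal N as well, against 24.1% of all tested genes, with a median log2 fold change of -0.88 at normal N and -0.84 at low N. At low N 10 of the 12 were called lower after either other scaling. Without WT replicate 2 the count was also 10, where 77.9% of all low-N calls were kept. Both stretches were picked out after their values were seen, and no test was made of their length.

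**Figure D5:**
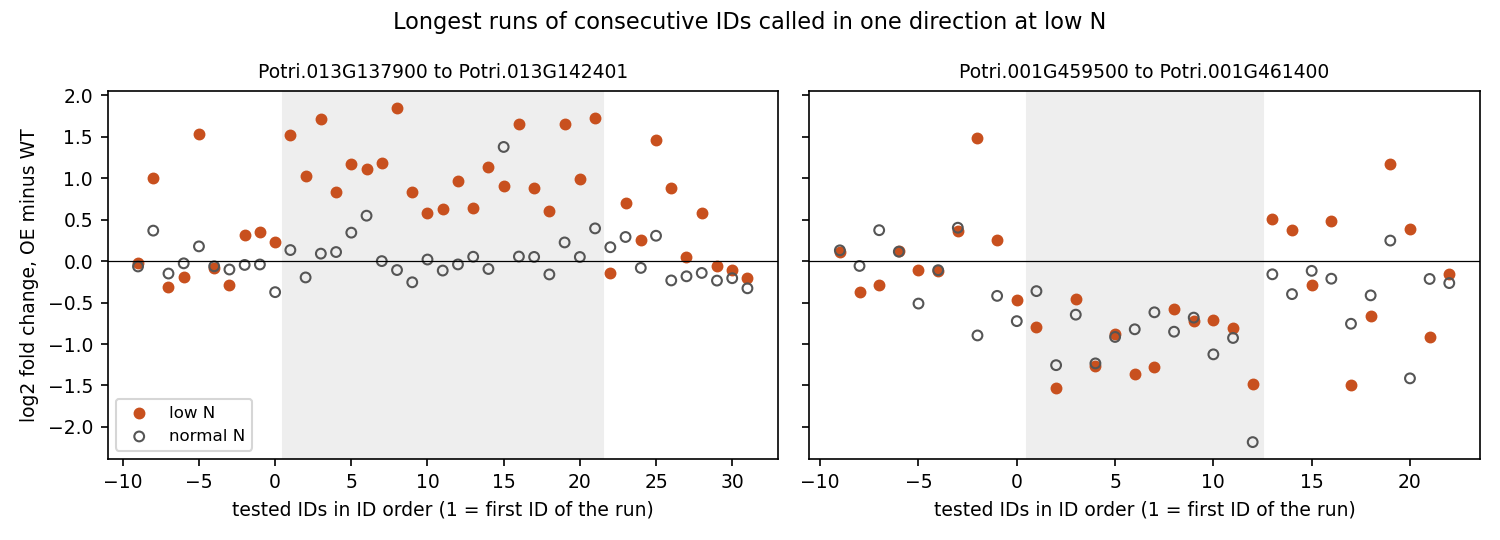
Log2 fold change (PuHox52-OE minus WT) of single IDs at low N (filled) and normal N (open) along the 2 longest stretches of consecutive tested IDs called in 1 direction at low N, shaded, with 10 IDs on each side, in ID order. In the left stretch the low-N values lie above most normal-N values, which scatter around 0; in the right stretch the values at both N supplies lie below 0.

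Summed over all its tested IDs, the number 013 had the largest share of rises and the smallest share of falls. Of 951 tested IDs, 19.2% were called higher and 18.8% lower, whereas the other 18 numbers had 12.9 to 17.1% higher and 21.1 to 29.3% lower. Without WT replicate 2 these shares were 16.6% and 16.5%, against 10.6 to 14.7% and 17.8 to 23.1% for the other numbers. The run at the start of this number, in which WT replicate 2 was low, held 210 tested IDs, of which 46 (21.9%) were called higher and 6 (2.86%) lower, against 14.9% and 25.1% of all tested genes. Without WT replicate 2 the counts were 43 (20.5%) higher, against 12.7% of all tested genes, and 22 (10.5%) lower, against 19.5%. By their median, the 121 genes of the run that averaged at least 5 FPKM in each of the 4 groups were higher in PuHox52-OE roots. Relative to other genes of such levels, the difference was 0.37 on the log2 scale and 0.15 without that library. The other 741 IDs of this number had 18.5% called higher and 23.3% lower. These 741 IDs include 2 stretches of 21 and 9 consecutive tested IDs that were all called higher. The excess of rises thus lay at least partly in the run and these stretches, and no excess was shown for the remaining IDs of this number.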

How the data were processed

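RNA-seq values of 12 root libraries were used, 3 in each of 4 groups. The deposited table holds FPKM that the authors computed per gene and library. TopHat and DESeq2 are listed in the submitters' processing notes, with neither versions nor roles. The genome build, the annotation and the FPKM program are not stated in these sources. Columns were matched to samples by the short labels in GEO's description field, and 0 other per-sample columns were present.

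FPKM are not counts, so no count model was used. The log2(FPKM + 1) values were modelled with limma 3.58.1 in R 4.3.3 (trend and robust estimation) on the 6 low-N libraries, since the low-N libraries varied more than those at normal N (median SD per gene 0.106 and 0.127 against 0.0966 and 0.0757). Interactions came from a fit of all 12 libraries. Adjusted p-values are Benjamini-Hochberg over 23842 genes. The comparison of sets with normal N used a fit of the 6 normal-N libraries, which was added after seeing the data. The procedure was tested on simulated data. Absolute depth is unknown and no counting intervals are given. With depths inferred from the steps, 100% of the low-N values of 413 genes under 0.15 FPKM were whole numbers of fragments to within 0.1, against 73.4% with equal depths. The depths were inferred from the same pool of genes under 0.15 FPKM, so this is not an independent check.

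Named IDs are the 2 that rose and the 2 that fell most among called genes whose low-N groups were separate and whose higher group averaged 5 FPKM or more, the rule for a table without gene names. 45 gene lists by description and a promoter motif could not be run without an annotation. Members, lists and rules were chosen with earlier results of these data known. The design text calls the libraries biological replicates. Settings tried were a pseudocount of 0.1, other filters, scalings, variance models and library weights, a 12-library fit, a replicate block, a size limit and leaving out each library.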

Additional observations from a re-analysis of the deposited data

Results flagged for a closer look

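The genotype effect differed between low and normal N, by the limma interaction test at an adjusted p under 0.05, for 8589 of 23842 genes and for all 4 named IDs. On the log2 scale the interaction, with the low-N effect counted as positive, was 5.22 for Potri.016G057600, -2.94 for Potri.014G103000, -3.38 for Potri.001G305400 and -3.44 for Potri.014G022900. The IDs were chosen for their low-N change, which favours a large interaction, except where the normal-N change is larger, as for Potri.014G103000.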

How the results depend on the processing

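The 9534 calls at low N became 1889 when a log2 change of 1 or more was also asked for. Other settings gave 8145 with a filter at 5 FPKM, 11596 with all 12 libraries in the fit and 7938 with the replicate block, all within 1.5 times. Leaving out each low-N library in turn gave 7034 to 8870 calls, 2834 to 3376 higher and 4200 to 5647 lower. Same-numbered WT and PuHox52-OE libraries deviated together at correlations of 0.0883, -0.0531 and -0.136 for numbers 1, 2 and 3. The labels state no pairing, and correlations from so few libraries cannot exclude one. With median-of-ratios factors 79.9% of the calls kept their direction and threshold and 0 turned over; with quantile normalization 84.5% did and 1 turned over. All 4 named IDs kept direction and threshold under each of the 15 other settings, with log2 fold changes of 5.66 to 6.46 for Potri.016G057600, 4.86 to 5.43 for Potri.014G103000, -6.52 to -4.17 for Potri.001G305400 and -4.44 to -3.61 for Potri.014G022900. Their interactions kept direction and threshold under each of 17 settings. The settings for gene lists were not run, since the table names no genes. With 3 libraries a group and no counts, precision at low FPKM is limited.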

Other observations

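A second stretch of risen IDs, Potri.013G162000 to Potri.013G162900, held 9 consecutive tested IDs. Its summed level was 25.7, 22.9 and 35.9 FPKM in WT replicates 1 to 3 and 86.9, 96.4 and 85.6 FPKM in PuHox52-OE replicates 1 to 3 at low N, and 6.73 to 15.6 FPKM in the 6 normal-N libraries. The median log2 fold change of the 9 was 1.04 at low N and 0.01 at normal N. Without WT replicate 2, 6 of the 9 were called at low N, where 77.9% of all low-N calls were kept. The stretch shares its pattern with the 21 IDs described above for the same number: little signal at normal N, more in WT at low N and most in PuHox52-OE at low N.

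A shorter stretch of falls, Potri.005G001300 to Potri.005G002500, held 8 consecutive tested IDs with a median log2 fold change of -0.61 at low N and -0.39 at normal N, where 5 of the 8 were called lower, against 24.1% of all tested genes. After median-of-ratios scaling 5 of the 8 were called at low N, where 79.9% of all low-N calls were kept. Without WT replicate 2 the count was 5, where 77.9% were kept. No other stretch of at least 8 consecutive tested IDs was called in 1 direction at low N.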
